A study of Mus musculus with 12 samples.

Results

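Homeobox and related patterning factors are transcription factors whose combinations mark positions along the embryonic neural tube. Hox genes are used in the hindbrain and spinal cord, Otx factors in the forebrain and midbrain, and Emx2, Lhx2, Six3 and the Nkx2 genes in different parts of the forebrain. Meis and Pbx proteins are partners that bind DNA together with other homeodomain proteins, and class III POU factors are broadly used by neural progenitors. The genes described here are the protein-coding entries of the table named Hoxa to Hoxd, Dlx, Lhx, Nkx, sine oculis-related (Six2, Six5 and relatives), Pax, Otx, Emx, Irx, Meis, Pbx or Pou, without 2 genes that the selection left out. They number 102 of 40597 loci.

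RNA was measured in neurospheres, floating clusters of dividing neural progenitors, grown from fetal C57Bl/6 mice, by dissociating the hypothalamus at embryonic day 14.5, and used at passage 3. Male and female cultures received 100 nM dexamethasone, a synthetic agonist of the glucocorticoid receptor, or the same volume of ethanol vehicle for 4 h. The 4 groups were male vehicle, male dexamethasone, female vehicle and female dexamethasone, with 3 libraries each that the labels call biological replicates. All groups shared the strain, the tissue and the culture method, and no uncultured tissue was among the 12 libraries. The labels do not say from how many animals a culture came, or whether a vehicle and a dexamethasone library with the same replicate number came from the same culture, so p-values measure the spread between these libraries. Levels are FPKM, fragment abundances divided by transcript length and library size, so that they can be compared between genes.

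The libraries differed in the share of all FPKM held by loci without a gene name. That share was 75.0% in male vehicle 3 and 53.1% in male dexamethasone 2, and between 11.6% and 38.6% in the other 10 libraries. The protein-coding loci summed to between 397412 and 453923 FPKM in every library, and the members to between 204 and 287 FPKM. The number of fragments behind each value is unknown, because the table holds no counts. All 9 markers of neural stem cells and radial glia had a mean of at least 1 FPKM, as did all 6 astrocyte and all 7 oligodendrocyte lineage markers, but 0 of 6 microglial and 0 of 6 endothelial ones. The 5 genes listed as a check of the drug (Fkbp5, Klf9, Tsc22d3, Per1 and Zbtb16) were higher under dexamethasone in both sexes, and Fkbp5 had a log2 fold change averaged over the sexes of 2.42 (SE 0.14, limma adjusted p = 2e-05).

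Of the 102 members, 20 averaged 1 FPKM or more across all libraries, which is called on here, and only these 20 were tested. This was 19.6% of the members, against 36.8% of all loci and 49.9% of protein-coding loci. Of the other 82 members, 3 reached 1 FPKM in some library, 50 stayed between 0 and 0.824 FPKM, and 29 were listed at 0 in all 12. The lowest mean among the 20 was 1.35 FPKM for Six5, and the highest mean under the limit was 0.879 FPKM for Nkx6-2. A listed 0 is not evidence that a gene was silent, since the depth is unknown.

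The stretches before the start sites of 3 members are shown because the results turn on these genes. Meis1 came closest to a call for dexamethasone in the fit without a term for replicate number. Irx2 and Otx2 were among those that differed between replicate numbers. Each stretch is the RefSeq sequence (GRCm38.p6) that ends at the base before an annotated start and is written 5′ to 3′ on the gene's strand. Capitals mark TAATTA, a core that many homeodomain proteins bind, which is its own reverse complement. For Meis1 the stretch is chr11:19018986-19019219, minus strand, for Irx2 chr13:72628570-72628819, plus strand, and for Otx2 chr14:48667645-48667894, minus strand. The Otx2 stretch ends at 1 of several annotated starts and lies inside the span of the gene but outside annotated exons.
Meis1: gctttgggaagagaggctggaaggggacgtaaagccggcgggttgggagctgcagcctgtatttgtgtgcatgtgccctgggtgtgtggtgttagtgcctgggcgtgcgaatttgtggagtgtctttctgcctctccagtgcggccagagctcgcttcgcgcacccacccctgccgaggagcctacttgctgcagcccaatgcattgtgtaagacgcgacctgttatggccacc
Irx2: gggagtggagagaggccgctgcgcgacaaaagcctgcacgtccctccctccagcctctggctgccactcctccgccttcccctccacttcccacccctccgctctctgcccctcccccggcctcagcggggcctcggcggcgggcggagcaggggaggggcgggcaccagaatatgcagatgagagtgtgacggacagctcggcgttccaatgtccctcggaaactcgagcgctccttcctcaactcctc
Otx2: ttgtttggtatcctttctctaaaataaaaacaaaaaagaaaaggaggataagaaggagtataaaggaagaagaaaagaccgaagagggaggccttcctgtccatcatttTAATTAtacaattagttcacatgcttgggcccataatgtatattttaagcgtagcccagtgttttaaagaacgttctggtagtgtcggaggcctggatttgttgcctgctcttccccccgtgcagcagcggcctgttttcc

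The RefSeq table held 66 of the 102 members, with 79 windows of 250 bases before a start. The Meis1 window is printed here without the bases that lie in an annotated exon, which leaves 234. The window shown for Otx2 had 1 match to TAATTA, and those of Meis1 and Irx2 had none. TAATTA occurred in 2 of the 79 windows, both of Otx2, and in 4.84% of all 32851 windows. AGAACA or its reverse complement TGTTCT, the half-site of the glucocorticoid receptor, occurred in 5 of the 79 windows (6.33%) and in 16.1% of all windows. The 5 belonged to Hoxa11, Hoxa9, Otx2, Pax5 and Pax9, and the Otx2 match was in another window than the one printed. TGACAG or CTGTCA, the core of Meis-type factors, occurred in 10 of the 79 windows (12.7%) and in 15.9% of all windows. These matches are descriptions of letters in short windows. No binding was measured.

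**Figure D1:**
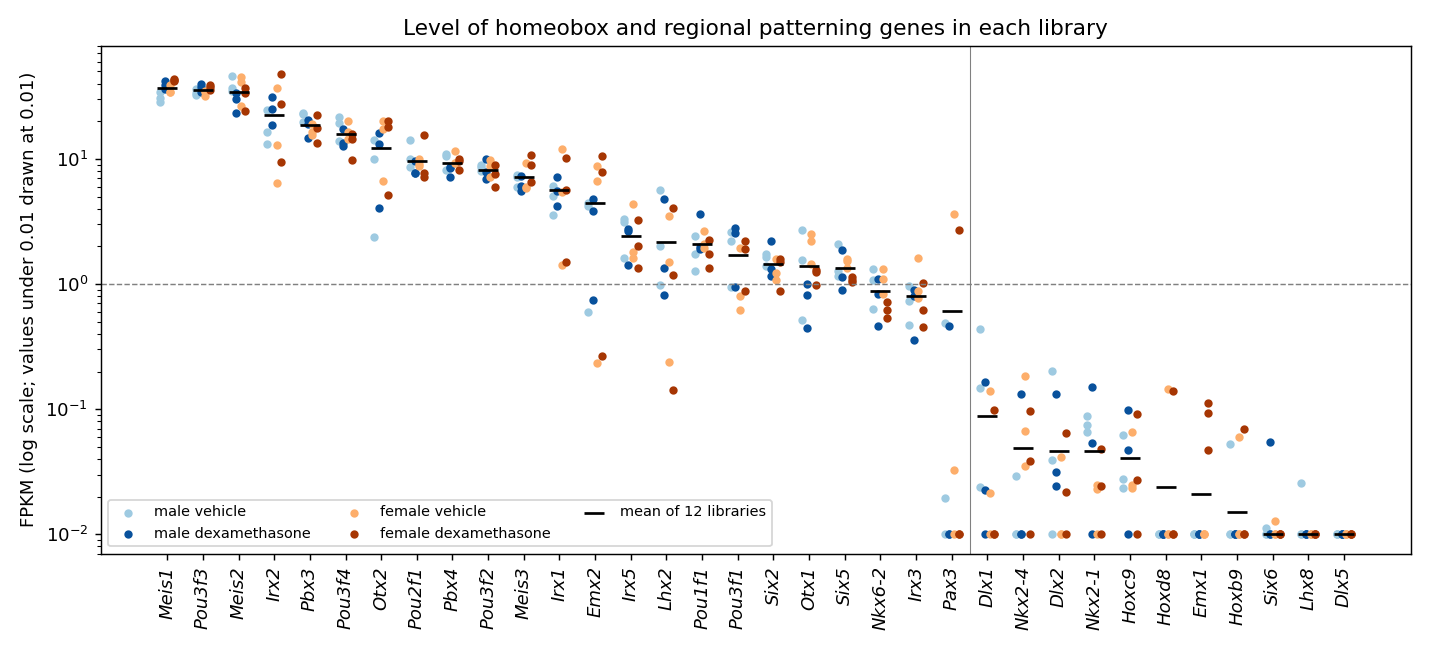
FPKM (log scale) of the 23 members that reached 1 FPKM in at least 1 library, left of the vertical line, and of 11 members that did not, chosen for their regional roles or as the highest of the Hoxb, Hoxc and Hoxd clusters. Each point is a library, coloured by group, black bars are means of 12 libraries, the dashed line is 1 FPKM, and values under 0.01 are drawn at 0.01. Meis1, Pou3f3 and Meis2 lie between 23.2 and 46.2 FPKM, Emx2, Lhx2 and Pax3 spread over more than a factor of 10, and the Hox, Dlx and ventral hypothalamic genes lie under 1 FPKM.

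Genes of the partner proteins were among the members with the highest RNA levels. Meis1 had a mean of 37.2 FPKM, Meis2 34.4 and Meis3 7.23, and all 3 Meis genes were above 5 FPKM in every library. Meis proteins help Hox and Pax factors to bind DNA, and Meis2 is also used in forebrain and midbrain development. Among their Pbx partners, Pbx3 had a mean of 18.7 FPKM (range 13.5 to 23.2) and Pbx4 9.30 FPKM (range 7.22 to 11.6). Pbx2 lies in a locus that the table joins with a neighbouring gene and fell outside the rule. The joined locus had a mean of 13.2 FPKM.

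The POU genes held 6 of the 20. Pou3f3, a class III factor of neural progenitors, was at 32.1 to 39.6 FPKM with a mean of 35.6. The other class III genes were Pou3f4 at 15.8 FPKM, Pou3f2, which acts in hypothalamic neurons, at 8.21, and Pou3f1 at 1.70. The locus of Pou2f1, a ubiquitous factor, had a mean of 9.67 FPKM. The table joins Pou2f1 with an antisense gene there, and the value is for both together. Pou1f1, known as the pituitary factor Pit1, was at 1.27 to 3.63 FPKM in all 12 libraries, while the other listed pituitary genes had means under 1 FPKM. Lhx3 and Lhx4 were at most 0.0485 FPKM, and 0 of 10 pituitary markers had a mean of 1 FPKM, with Gh, Cga and Pitx1 listed at 0 in every library. The 10 markers summed to 3.29 FPKM in female vehicle 3 and 2.06 in female dexamethasone 3, and to between 0.384 and 0.989 FPKM elsewhere. The remaining 8 genes of this name had means of at most 0.134 FPKM (Pou2f2, in a locus joined with a microRNA gene).

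The anterior genes that were on came from several regional codes. Otx2, a factor of forebrain and midbrain, had a mean of 12.3 FPKM and Otx1 1.39. Of the Iroquois genes, which are used in the diencephalon, midbrain and hindbrain, Irx2 had a mean of 22.5 FPKM, Irx1 5.65 and Irx5 2.43. Irx3 was at 0.358 to 1.61 FPKM with a mean of 0.799, and Irx4 and Irx6 were under 0.05 FPKM in every library. In a list of 12 Otx, Irx, Pax and Pou genes drawn up for the midbrain and its surroundings, 5 had a mean of at least 1 FPKM: Otx1, Otx2, Irx1, Irx2 and Irx5. These are the Otx and Irx genes of wide use just named. The Pax genes of the list had means of at most 0.612 FPKM and the joined Pou4f1 locus 0.118, so the list does not single out a region. Of a list of 9 telencephalic genes, 2 did, Emx2 at 4.41 FPKM and Lhx2 at 2.18. Both are forebrain factors, and Lhx2 is also required in the hypothalamus. Emx1, the cortical relative of Emx2, was at most 0.111 FPKM, and the Dlx genes, which mark the ventral telencephalon and parts of the hypothalamus, had a highest library of 0.435 FPKM (Dlx1). Dlx2 had a mean of 0.0465 FPKM and Dlx5 was listed at 0 throughout. Six2 averaged 1.44 FPKM and Six5 1.35, and their relative Six4 had a mean of 0.566 FPKM.

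Most factors that define the labelled tissue were at very low levels. In a list of 12 hypothalamic genes, 2 had a mean of at least 1 FPKM, Pou3f2 and Six3. Nkx2-1, the main ventral hypothalamic factor, had a highest library of 0.149 FPKM, Nkx2-4 0.185, Six6 0.0551 and Lhx8 0.0255. Among genes outside the families, Rax, required for the hypothalamus to form, was at most 0.04 FPKM, and the neuronal hypothalamic factors Otp and Sim1 at most 0.114 and 0.0212. Foxb1, a factor of the mammillary region, and Foxd1 went the other way, with 0.680 to 3.45 FPKM and a mean of 1.55 for Foxb1 and a mean of 1.29 FPKM for Foxd1. Six3, an anterior forebrain factor, lies in a locus joined with its antisense transcript, which has no biotype and fell outside the rule, and whose reads may be mixed. That locus was at 0.064 to 50.6 FPKM with a mean of 26.5. Lhx6, also in a joined locus, had a mean of 0.0487 FPKM. In bulk RNA, fewer cells of a type and less RNA per cell cannot be told apart.

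No Hox gene was on. Of 34 Hox members, 0 had a mean of 1 FPKM, and 21 were listed at 0 in all 12 libraries. The highest of the Hoxc, Hoxd and Hoxb clusters were Hoxc9, Hoxd8 and Hoxb9, with means of 0.0410, 0.0238 and 0.0152 FPKM. The Nkx genes were also low: 0 of 13 had a mean of 1 FPKM, and Nkx6-2, a ventral neural tube factor, was highest at 0.461 to 1.32 FPKM. Of 8 Pax members, Pax3 was highest with a mean of 0.612 FPKM, almost all of it in a few libraries. Of 13 members known from tissues outside the brain, such as Nkx2-5 of the heart, 0 had a mean of 1 FPKM, and the list summed to at most 0.921 FPKM in a library.

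The regional genes differed most by replicate number within a sex, whichever treatment the library had received. Emx2 was at 4.43, 4.24 and 0.602 FPKM in male vehicle libraries 1, 2 and 3 and at 4.74, 3.82 and 0.739 FPKM in the male dexamethasone libraries of the same numbers. In females it was at 8.81, 0.234 and 6.63 FPKM under vehicle and at 10.6, 0.268 and 7.80 FPKM under dexamethasone. Male 3 and female 2 were thus low in both treatments, and the vehicle and dexamethasone groups overlapped in both sexes. The mean of the 2 libraries of a sex and number ranged 38.7-fold for Emx2.

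Lhx2 was low in female 2 as well. It was at 0.986, 5.64 and 2.00 FPKM in male vehicle, 0.820, 4.75 and 1.34 in male dexamethasone, 1.499, 0.236 and 3.51 in female vehicle and 1.18, 0.143 and 4.03 in female dexamethasone libraries 1 to 3. Male 2 and female 3 were highest, and the means of same-numbered libraries ranged 27.4-fold. The joined Six3 locus was at 0.064 and 0.0702 FPKM in the female 2 libraries and at 7.45 to 50.6 FPKM in the other 10.

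Otx2 had another order. It was at 14.1, 2.37 and 10.03 FPKM in male vehicle, 16.0, 4.07 and 13.3 in male dexamethasone, 17.3, 20.04 and 6.71 in female vehicle and 18.0, 20.1 and 5.15 in female dexamethasone libraries 1 to 3. Male 2 and female 3, where Lhx2 was highest, were lowest for Otx2, with a 6.23-fold range over the means of same-numbered libraries.

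Irx1 and Irx2 were highest in female 2, where Emx2 and Six3 were lowest. Irx1 was at 11.9 and 10.2 FPKM in female 2 (vehicle, dexamethasone), at 1.41 and 1.49 in female 1 and at 3.54 to 7.22 in the other 8 libraries. Irx2 was at 37.1 and 47.7 FPKM in female 2, at 6.41 and 9.46 in female 1 and at 12.97 to 31.4 elsewhere. Irx5 was at 4.34 and 3.23 FPKM in female 2 and at 1.34 to 3.31 elsewhere, so that its dexamethasone library lay inside that range.

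Pax3, a factor of dorsal neural tube, midbrain and neural crest, was at 3.64 and 2.69 FPKM in female 2, at 0.493 and 0.463 in male 3 and at most 0.0326 in the other 8 libraries. Its relative Pax7 followed at low level, with 0.227 and 0.270 FPKM in female 2, 0.204 and 0.180 in male 3 and 0 in the others. Beside this, the neural crest markers Foxd3, Tfap2a and Tfap2b were at most 0.154 FPKM. Sox10, the only crest marker with a mean of at least 1 FPKM and also an oligodendrocyte lineage gene, was at 5.64 and 3.78 FPKM in female 2 and at 6.64 and 7.23 FPKM in female 1, where Pax3 was listed at 0.

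**Figure D2:**
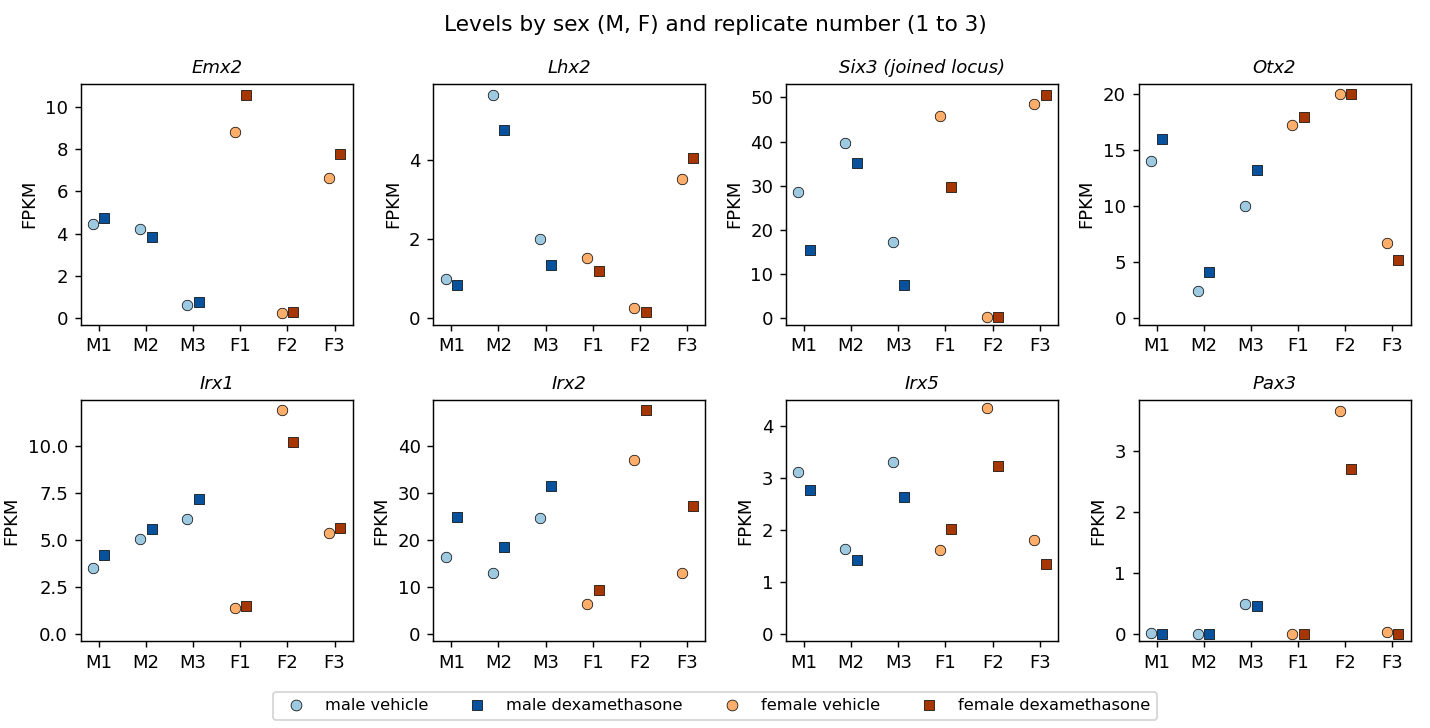
FPKM of 7 members and the joined Six3 locus in each library, by sex (M, F) and replicate number on the horizontal axis, with circles for vehicle and squares for dexamethasone. The 2 libraries of a sex and number lie close together compared with the spread between numbers, and female 2 combines the lowest Emx2, Lhx2 and Six3 with the highest Irx1, Irx2 and Pax3.

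After these values had been seen, the replicate number within each sex was tested over all loci with a limma F-test, in a fit that also holds the 4 group means. It called 6 of the 20 tested members, against 7.86% of the 14931 loci tested. The 6 were Emx2 (adjusted p = 0.000879), Irx1 (0.00265), Otx2 (0.00580), Lhx2 (0.00807), Irx2 (0.0113) and Meis2 (0.0403). The Six3 locus was called as well (adjusted p = 0.00316). Pax3, Pax7 and the other members with a mean under 1 FPKM were not tested here. The range over the 6 combinations of sex and number had a median of 0.624 on the log2 scale for the 20 members and of 0.484 for all loci. That range was larger than the largest difference between any 2 same-numbered libraries of a sex in 16 of the 20 members, against 51.7% of all loci.

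The calls rested on different amounts of data. Emx2 was called with both libraries rich in unnamed loci left out, when 1 of 20 members and 0.828% of loci were called. Emx2, Irx1, Lhx2 and Otx2 were called with any 1 library left out. Irx2 was not called without male vehicle 3, female vehicle 1 or female dexamethasone 1, and Meis2 was called in only 1 of the 12 fits with a library left out, that without female dexamethasone 2. Without both female 2 libraries 7 members were called, the same 6 and Pou3f1.

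**Figure D3:**
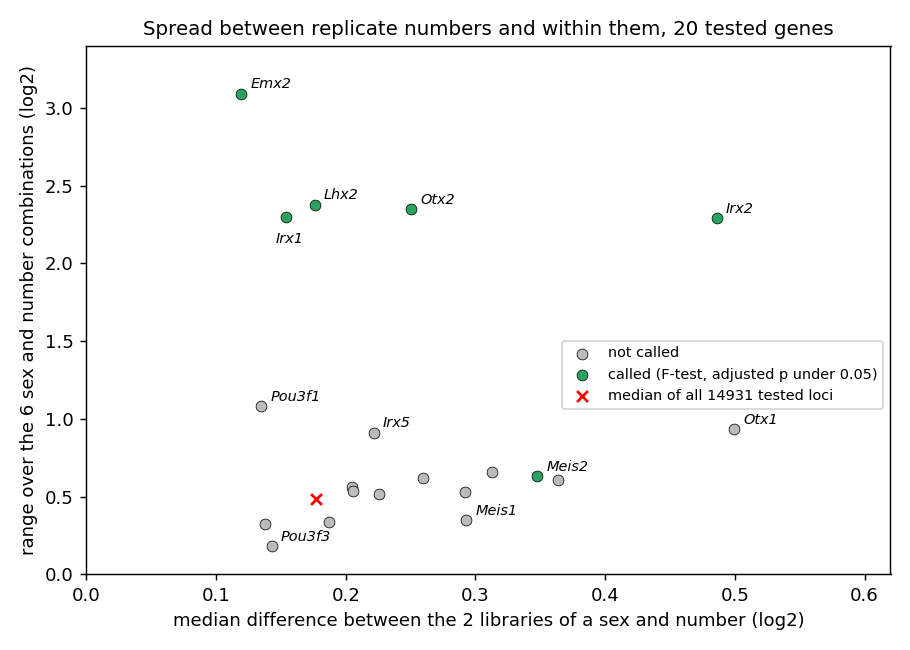
For the 20 tested members, the range of mean log2(FPKM + 1) over the 6 combinations of sex and replicate number (vertical) against the median difference between the 2 libraries that share sex and number (horizontal). Green points were called in the F-test for number, and the red cross is the median of all 14931 loci. Emx2, Lhx2, Otx2, Irx1 and Irx2 have ranges above 2, while Meis1 and Pou3f3 lie under 0.4.

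Other patterning genes also differed by replicate number. Of 57 listed patterning genes outside the families, 20 had a mean of at least 1 FPKM. Of these, 7 were called for replicate number, against 7.86% of all loci tested: Barhl2, Dbx2, En2, Foxd1, Zic1, Zic2 and Zic5. Foxd1, a factor of prethalamus and hypothalamus, was listed at 0 in both female 2 libraries and was at 0.284 to 3.16 FPKM in the other 10. Fezf1, a forebrain factor with a mean under 1 FPKM, was listed at 0 in both. Some markers of glia moved with the number too: 3 of 6 astrocyte markers (Aqp4, Gfap and S100b) and 3 of 7 oligodendrocyte lineage markers (among them Pdgfra and Sox10) were called. So were 1 of 9 stem cell markers (Nes) and 0 of 5 tested neuronal ones. The same share of 7.86% of all loci stands beside each of these counts, and lists this short do not tell the cell types apart. The summed astrocyte list was at 252 to 503 FPKM in male vehicle, 325 to 853 in male dexamethasone, 397 to 580 in female vehicle and 591 to 723 in female dexamethasone libraries. The summed oligodendrocyte lineage list was at 330 to 436 FPKM over all libraries. Of 3 tested markers of mesenchyme and meninges, 2 were called for replicate number, against 7.86% of all loci. These were Twist1 and Foxd1, which is on that list too. The part of these cell types in the spread of the regional genes was not tested.

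None of the 20 tested members was called for dexamethasone in the fit of the 4 group means, which has no term for replicate number. In this limma fit of log2(FPKM + 1), averaged over the sexes, 0 of 20 members were called, against 1.53% of all loci, and 2 of 20 members had an unadjusted p under 0.05, Meis1 and Pou3f3, against 13.6% of all loci. In males 0 of 20 were called, against 0.315% of all loci, with 1 under 0.05 unadjusted, against 6.38%. In females 0 of 20 were called, against 0.482%, with 1 under 0.05 unadjusted, against 8.02%. The member under 0.05 was Meis1 in each sex. With replicate number within sex added to the fit as a block, limma called 3 of 20 members averaged over the sexes. These were Irx2, Meis1 and Meis2, against 5.38% of all loci called. No member was called with the block in either sex alone. The median log2 fold change of the 20 members, averaged over the sexes, was -0.06, against -0.01 for all loci, with 9 positive and 11 negative values. Between vehicle and dexamethasone libraries of the same sex and number, Meis1, Pou3f3 and Irx2 were higher under dexamethasone in 6 of 6 comparisons. Meis2, Pou3f4, Otx1 and Six5 were lower in 6 of 6. The share of all loci with the same direction in 6 of 6 was not computed, so it is unknown whether these directions set any member apart. A fold change on this scale understates the change of genes with low FPKM.

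Meis1 came closest. It was at 28.4, 30.7 and 34.2 FPKM in male vehicle and at 36.0, 39.0 and 41.8 FPKM in male dexamethasone libraries. In females it was at 34.4, 38.7 and 34.5 FPKM under vehicle and at 42.6, 43.4 and 42.2 FPKM under dexamethasone. The groups did not overlap within either sex, while the highest vehicle library of the females lay above the lowest dexamethasone library of the males. The means were 31.1 ± 2.88 and 38.9 ± 2.93 FPKM in males and 35.9 ± 2.45 and 42.7 ± 0.610 FPKM in females (SD, n = 3 each). The log2 fold change was 0.28 (SE 0.06), with an adjusted p of 0.0593 from limma averaged over the sexes, 0.319 in males and 0.451 in females. With the block, the limma adjusted p of Meis1 averaged over the sexes was 0.0155. Among the alternatives without a term for replicate number, Meis1 passed the threshold without male vehicle 3 (adjusted p = 0.0494) and when only protein-coding single-gene loci were tested (adjusted p = 0.0463), and its adjusted p was highest, at 0.224, with scaling to protein-coding sums.

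Meis2 differed in the other direction. It was at 36.9, 46.2 and 35.0 FPKM in male vehicle, 30.0, 33.7 and 23.2 in male dexamethasone, 26.4, 45.0 and 41.3 in female vehicle and 24.0, 33.8 and 37.2 in female dexamethasone libraries. The male groups did not overlap and the female groups did. The log2 fold change was -0.33 (SE 0.16, limma adjusted p = 0.404) without the block, and the adjusted p was 0.0385 with it. Irx2 had the largest positive estimate, 0.54 (SE 0.45, limma adjusted p = 0.635) without the block, and its adjusted p was 0.0390 with it. It was at 18.1 ± 6.05 and 24.9 ± 6.45 FPKM in male vehicle and dexamethasone libraries (SD, n = 3 each). In females it was at 18.8 ± 16.1 and 28.1 ± 19.1 FPKM (SD, n = 3 each). Its groups overlapped in both sexes.

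**Figure D4:**
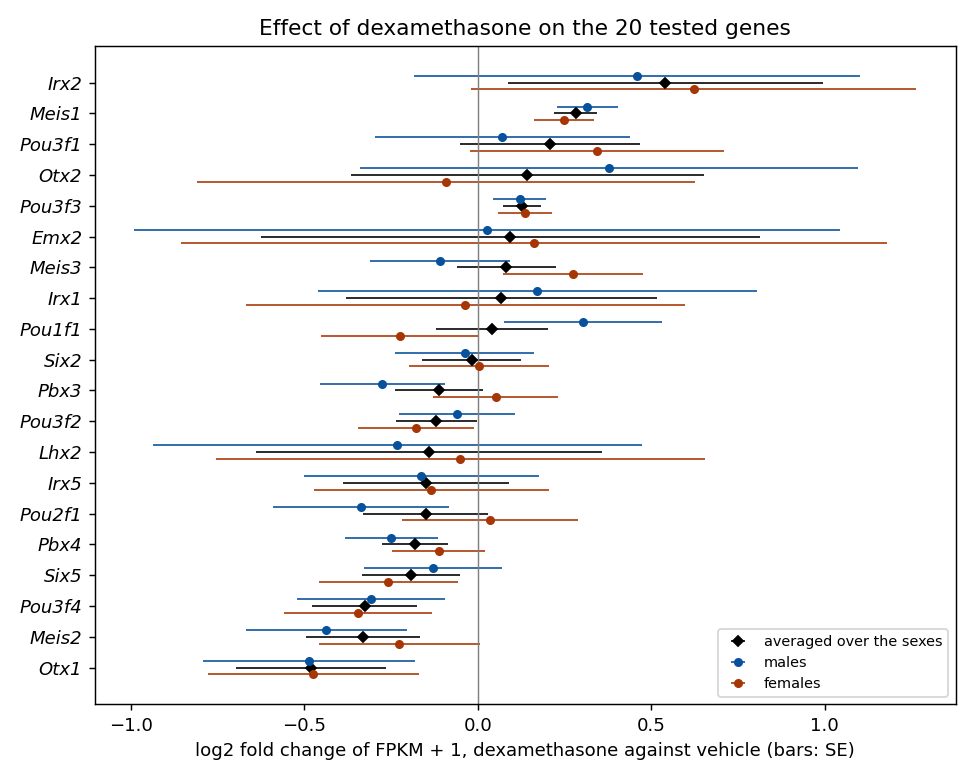
Log2 fold change of FPKM + 1, dexamethasone against vehicle, for the 20 tested members, averaged over the sexes (black diamonds) and in each sex (circles), with bars of 1 standard error. Values and errors are those of the fit without a term for replicate number. Averaged values run from -0.48 for Otx1 to 0.54 for Irx2, and Meis1 at 0.28 has one of the smallest errors, whereas Emx2, Lhx2, Otx2, Irx1 and Irx2 have the widest.

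Otx1, Pou3f4, Pbx4 and Pou3f3 had estimates of about 2 standard errors that did not pass after adjustment over all loci. Otx1 was at 2.73, 0.518 and 1.55 FPKM in male vehicle, 0.996, 0.444 and 0.821 in male dexamethasone, 2.202, 2.49 and 1.44 in female vehicle and 1.24, 1.29 and 0.983 in female dexamethasone libraries. The female groups of Otx1 did not overlap and the male groups did, and the log2 fold change was -0.48 (SE 0.22, limma adjusted p = 0.369). The log2 fold change of Pou3f4 was -0.33 (SE 0.15, limma adjusted p = 0.376), that of Pbx4 -0.18 (SE 0.09, adjusted p = 0.432) and that of Pou3f3 0.13 (SE 0.05, adjusted p = 0.343). Dexamethasone and vehicle libraries did not overlap for 2 of 20 members in males (Meis1 higher, Meis2 lower), against 11.9% of all loci. In females this held for 4 of 20 (Meis1 and Pou3f3 higher, Otx1 and Six5 lower), against 12.8% of all loci. The remaining 13 members had estimates whose limma adjusted p averaged over the sexes was at least 0.581. For Emx2 and Lhx2 the standard errors of this fit were 0.72 and 0.50 on the log2 scale, larger than the estimates of 0.09 and -0.14. The spread between replicate numbers is part of these errors, since the fit has no term for the number.

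Among the other listed patterning genes with a mean of at least 1 FPKM, 2 of 20 were called higher under dexamethasone averaged over the sexes and 0 lower. Of all loci, 1.53% were called in either direction. Gbx2, a homeobox factor of the anterior hindbrain, was at 0.252 to 1.00 FPKM in the 6 vehicle and at 1.89 to 5.13 FPKM in the 6 dexamethasone libraries (log2 fold change 1.21, SE 0.20, limma adjusted p = 0.0151). Pknox2, which belongs to the same TALE class as Meis1 and Pbx3, was at 5.03 to 6.17 FPKM under vehicle and 7.59 to 10.1 FPKM under dexamethasone (log2 fold change 0.55, SE 0.09, limma adjusted p = 0.0131). The 6 vehicle and 6 dexamethasone libraries did not overlap for either gene, and the share of all loci for which this holds was not computed. Gbx2 reached a mean of 1 FPKM, and so was tested, only through its dexamethasone libraries, so its call and its lack of overlap are not independent of that filter. Of the stem cell markers, Msi1 and Nr2e1 were lower under dexamethasone (log2 fold change -0.64 and -0.57, limma adjusted p = 0.0151 and 0.0475), and of the oligodendrocyte lineage markers Cspg4 was higher (0.76, adjusted p = 0.0114). Their part in the values of Meis1 was not tested.

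**Figure D5:**
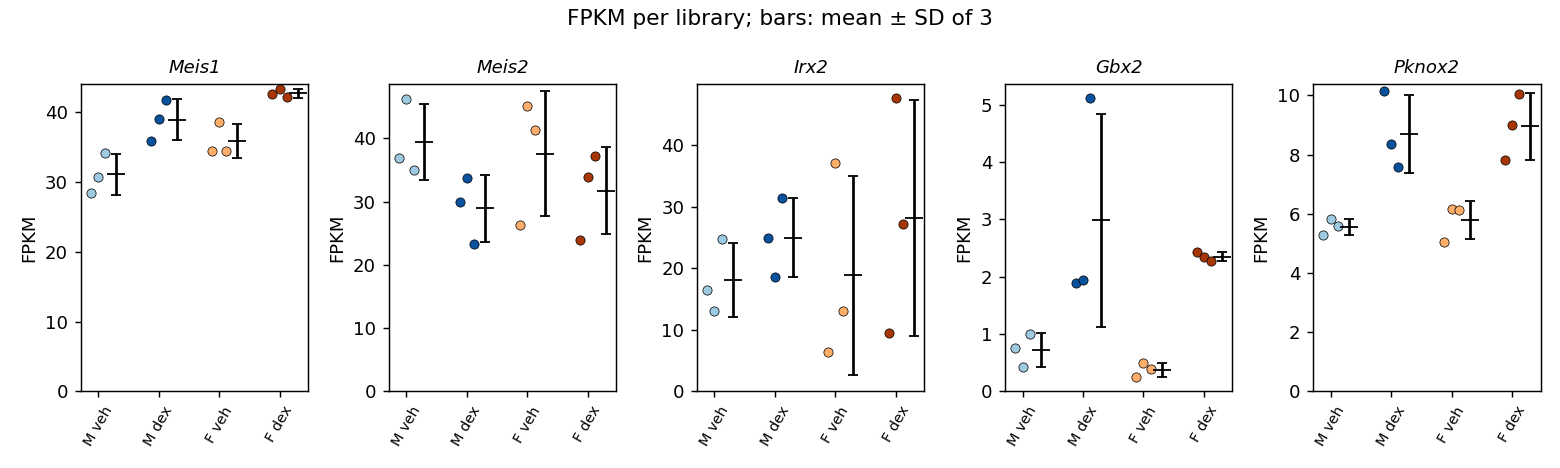
FPKM of Meis1, Meis2 and Irx2 and of Gbx2 and Pknox2, which lie outside the selected families, in each library by group (M male, F female, veh vehicle, dex dexamethasone). Bars beside the points are the mean ± SD of 3 libraries. Meis1, Gbx2 and Pknox2 are higher under dexamethasone without overlap within a sex, and Irx2 spreads over more than 30 FPKM in both female groups.

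No member was called for a difference between the sexes or in its response by sex. Of the 20 tested members, limma called 0 for the difference between the female and the male effect of dexamethasone, against 0.0335% of all loci, and 0 had an unadjusted p under 0.05. For female against male it called 0 under vehicle, against 0.0737%, with 1 at an unadjusted p under 0.05, against 4.88% (Meis1, log2 fold change 0.20, SE 0.09, adjusted p = 0.892), and 0 under dexamethasone, against 0.0670%, with 0 unadjusted. Each group held 3 libraries that differed in their regional genes, and this spread is part of the error of these comparisons.

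By position, the genes that carried the results are given on GRCm38 with the spans of the GENCODE M21 annotation. Meis1 (ENSMUSG00000020160) spans chr11:18879817-19018985, and overlaps 5 other annotated genes, so a part of its fragments may belong to them. Emx2 (ENSMUSG00000043969) spans chr19:59458372-59465357 and overlaps its antisense gene Emx2os. Lhx2 (ENSMUSG00000000247) spans chr2:38339281-38369733 and Otx2 (ENSMUSG00000021848) chr14:48657677-48673819, each with antisense genes annotated, for Otx2 the gene Otx2os1. Otx2 also overlaps Gm49154 on its own strand, so a part of its fragments may belong to that gene. Irx1 (ENSMUSG00000060969) at chr13:71957921-71963723, Irx2 (ENSMUSG00000001504) at chr13:72628820-72634198 and Pax3 (ENSMUSG00000004872) at chr1:78101267-78197134 overlap no other annotated gene. Irx1 and Irx2 are neighbours in the same Iroquois cluster. The counts used gene-level values, so exons and isoforms were not told apart.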

How the data were processed

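RNA of 12 neurosphere libraries was sequenced with a stranded total RNA kit, per the labels' protocols, and each library had 1 column in the table used. The authors deposited FPKM values per locus. TopHat2 2.0.9, Cufflinks 2.2.1, Cuffdiff 2.2.1 and the build GRCm38 are named in the submitters' processing notes. Annotation, strand and library scaling were not given in the sources used here. The table holds no counts, so depth is unknown and no interval from counts was made.

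Columns were matched to libraries by the letter in the labels. The 14931 loci that averaged 1 FPKM or more across all libraries were tested with limma 3.58.1 (R 4.3.3) on log2(FPKM + 1), with 4 group means, a mean-variance trend and Benjamini-Hochberg adjustment over all of them, called at an adjusted p under 0.05. The code was tested on simulated data. Alternatives changed the pseudocount, filter, scaling, shrinkage, loci, block and libraries. The test of replicate number and the fits without 2 libraries at a time were chosen after the data were seen. The members and lists were chosen with earlier results of these data known. Genes were named by a rule: any called member, the 25 highest members, those reaching 1 FPKM in a library, the highest of each family, and listed regional genes. Spans came from GENCODE M21 for all 102 members, and sequences from RefSeq for 66. Some genes are not reported here.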

Additional observations from a re-analysis of the deposited data

How the results depend on the processing

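Depth is unknown, so low values such as those of the Hox and Nkx genes cannot be given a limit. The number of members with a mean of at least 1 FPKM was 20, and 14 to 24 under other limits (24 at 0.5 FPKM, 16 at 2 FPKM, 14 with 1 FPKM in every library, 21 in the vehicle libraries alone), and 20 with any 1 library left out. For dexamethasone averaged over the sexes, 0 members were called, with 1 member called when only protein-coding single-gene loci were tested and 0 to 1 with a library left out (Meis1, without male vehicle 3). The count over all loci, 229, was 146 without female dexamethasone 1, 114 without both libraries rich in unnamed loci and 135 without female 2. For the other 5 contrasts 0 members were called under every alternative run. Replicate numbers are shared between treatments in the labels. Same-numbered libraries of a sex had deviations correlated over 0.1, a chosen limit, in 4 of 6 pairs (0.0819 to 0.167). By that limit the numbers were not used as a block in the main comparisons. Vehicle and dexamethasone libraries of a sex with different numbers correlated at -0.147 to 0.0338, below every same-numbered pair. Should the numbers mark shared cultures, the fit with the block is the one that uses the pairing. All 12 libraries correlated best with their own number, which is a hint from the data and not from the labels. With the replicate block, 3 members were called averaged over the sexes (Irx2, Meis1 and Meis2, adjusted p = 0.0390, 0.0155 and 0.0385) and 804 loci in all. With the block and without female 2, 1 member was called (Meis1) and 388 loci. No member was called under the block in either sex alone. The 6 members called for replicate number became 1 without both libraries rich in unnamed loci, 4 to 7 with any 1 library left out (215 to 830 of all loci, against 1173) and 4 to 9 under the other alternatives. The 9 were of 19 members tested among protein-coding single-gene loci, where 21.4% of all loci were called. With no filter, 8 of 73 members were called, among them Pax3, Pax7 and Hoxd8, against 2.62% of all loci. Of 515 fold changes of 7 members recomputed under the alternatives, 0 changed sign, and the 6 that moved past the threshold were those of Meis1, Meis2 and Irx2 named above. The causes were not tested.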
